A study of Mus musculus with 8 samples.

Results

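The genes described here are negative feedback regulators of the ERK pathway and the related ETV transcription factors: Dusp4, Dusp6, Spry1, Spry2, Spry4, Spred1, Spred2, Etv1, Etv4 and Etv5. Of these 10 genes, 9 had at least 1 probe set annotated to that gene alone, 27 probe sets in all, among 45101 probe sets and 18193 named genes on the array. Where a gene had several, the one with the highest mean log2 level was used. Etv1 had no such probe set and its shared probe sets are described separately. RNA came from mouse embryonic stem cells (ES cells; male, strain 129S4/Svjae) grown with LIF, a cytokine that maintains the undifferentiated state. The control group (3 arrays) carried lentiviral shRNA against GFP, the Jmjd2b knockdown (3 arrays) shRNA against Jmjd2b, and the Jmjd2c knockdown (2 arrays) shRNA against Jmjd2c. All groups, controls included, had been infected with lentivirus, selected in puromycin and passaged before RNA was collected. The targets, whose current symbols are Kdm4b and Kdm4c, encode histone demethylases that act on methylated lysine 9 of histone H3. The hairpin sequences, and how many were used per target, are not given in the sources used here. Whether replicates were separate cultures is not stated, so every p-value reflects only the spread among these arrays, and that spread may be technical.

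Fibroblast growth factors and other ligands of receptor tyrosine kinases activate RAS, RAF, MEK and finally the kinase ERK. ERK signalling induces its own inhibitors. DUSP phosphatases remove phosphate from ERK, Sprouty proteins dampen signalling between the receptor and RAF, and SPRED proteins bring the RAS inhibitor neurofibromin to the membrane. ETV1, ETV4 and ETV5 are ETS transcription factors of the PEA3 group, whose transcription is widely used as a readout of FGF signalling. In ES cells, FGF4 made by the cells themselves activates ERK, and this signal favours exit from the naive state.

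Intensities were deposited on a linear scale, and array medians lay between 44.7 and 46.6. Differences between groups are given as log2(intensity + 16), a scale that understates the changes of dim genes, with their standard error (SE). They were tested with limma in 1 model over all 8 arrays, with Benjamini-Hochberg adjustment over all 18193 genes and a threshold of 0.05. The targeted genes checked the labels: Kdm4b in the Jmjd2b knockdown arrays was at 10.8%, 6.27% and 3.64% of the control mean, and Kdm4c in the Jmjd2c knockdown arrays was at 11.1% and 36.7%. Each target was also below every control in the other knockdown without passing the test: Kdm4c was at 58.7%, 62.5% and 50.8% in the Jmjd2b knockdown arrays (limma adjusted p = 0.102) and Kdm4b at 52.3% and 60.9% in the Jmjd2c knockdown arrays (limma adjusted p = 0.178). The ES cell gene Pou5f1 was bright in every group, while several other ES cell markers were lower in the knockdowns, as described below. The arrays were divided into 3 sets. Control 1, control 2 and Jmjd2b knockdown 2, which had a floor at 1, formed the first. Among the arrays without the floor, exactly shared values gave the other sets. Control 3 and Jmjd2b knockdown 1 were in the second, and Jmjd2b knockdown 3 with both Jmjd2c knockdown arrays in the third. No control lay in the third set.

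In the Jmjd2b knockdown, 4 of the 9 measured genes rose and 0 fell, against 11.5% of all genes that rose and 12.9% that fell. All 9 lay above the median level of all genes, where calls were more frequent. In a fit of only the 9096 genes above that level, 1777 rose and 1909 fell, and the same 4 members rose. The genes that rose were the phosphatases Dusp4 and Dusp6, Spry2 and Spred1. The median difference over the 9 genes was 0.40, and over all genes tested it was -0.03. The members were chosen with earlier results of these data known, so their counts beside the shares of all genes are description only. The promoter sequences of 3 of the genes that rose are shown, from RefSeq (GRCm38.p6), because these genes rose together; a window for Dusp4 was not used here. Each is the 250 bases before an annotated start site, and capitals mark GGAA, the core of ETS sites, on either strand (GGAA or TTCC).
Dusp6: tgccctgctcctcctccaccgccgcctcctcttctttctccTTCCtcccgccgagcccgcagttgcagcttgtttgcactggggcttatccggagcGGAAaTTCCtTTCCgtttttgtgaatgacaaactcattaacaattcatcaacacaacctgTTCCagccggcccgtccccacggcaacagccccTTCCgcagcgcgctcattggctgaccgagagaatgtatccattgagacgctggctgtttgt
Spry2: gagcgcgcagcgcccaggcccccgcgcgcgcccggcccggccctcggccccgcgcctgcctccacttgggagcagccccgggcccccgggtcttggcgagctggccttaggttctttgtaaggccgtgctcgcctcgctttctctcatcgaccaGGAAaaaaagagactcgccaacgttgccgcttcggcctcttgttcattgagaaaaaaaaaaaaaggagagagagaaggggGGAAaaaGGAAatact
Spred1: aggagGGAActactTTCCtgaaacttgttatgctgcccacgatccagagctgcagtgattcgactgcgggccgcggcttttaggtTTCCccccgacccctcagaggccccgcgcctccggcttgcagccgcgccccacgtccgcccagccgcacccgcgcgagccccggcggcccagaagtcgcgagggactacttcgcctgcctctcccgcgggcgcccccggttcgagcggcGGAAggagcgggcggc
The Dusp6 window is chr10:99262981-99263230 on the plus strand, the Spry2 window chr14:105896820-105897069 on the minus strand, and the Spred1 window chr2:117120821-117121070 on the plus strand. The Dusp6 window held 6 matches, and 8.69% of all promoter windows held at least as many. The Spry2 window held 3 matches, a number reached by 54.7% of windows, and the Spred1 window held 4, reached by 33.4%. Among genes that did not pass the test, the Spry1 window held 1 match (reached by 93.4% of windows), the Spred2 window held 7 (3.82%) and the Etv5 windows held 0 and 4 (33.4% for the latter). Windows were available for 7 of the 10 genes, 9 windows in all, since some genes have more than 1 annotated start. The longer ETS motif CCGGAAGT, the CRE motif TGACGTCA and the AP-1 motif TGANTCA, searched on both strands over 300 bases, occurred in 0 of these 9 windows, and in 3.89%, 1.79% and 7.81% of all windows. GGAA, chosen after those motifs gave no match, occurred in 8 of the 9 windows and in 96.0% of all windows. These matches describe the letters only.

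**Figure D1:**
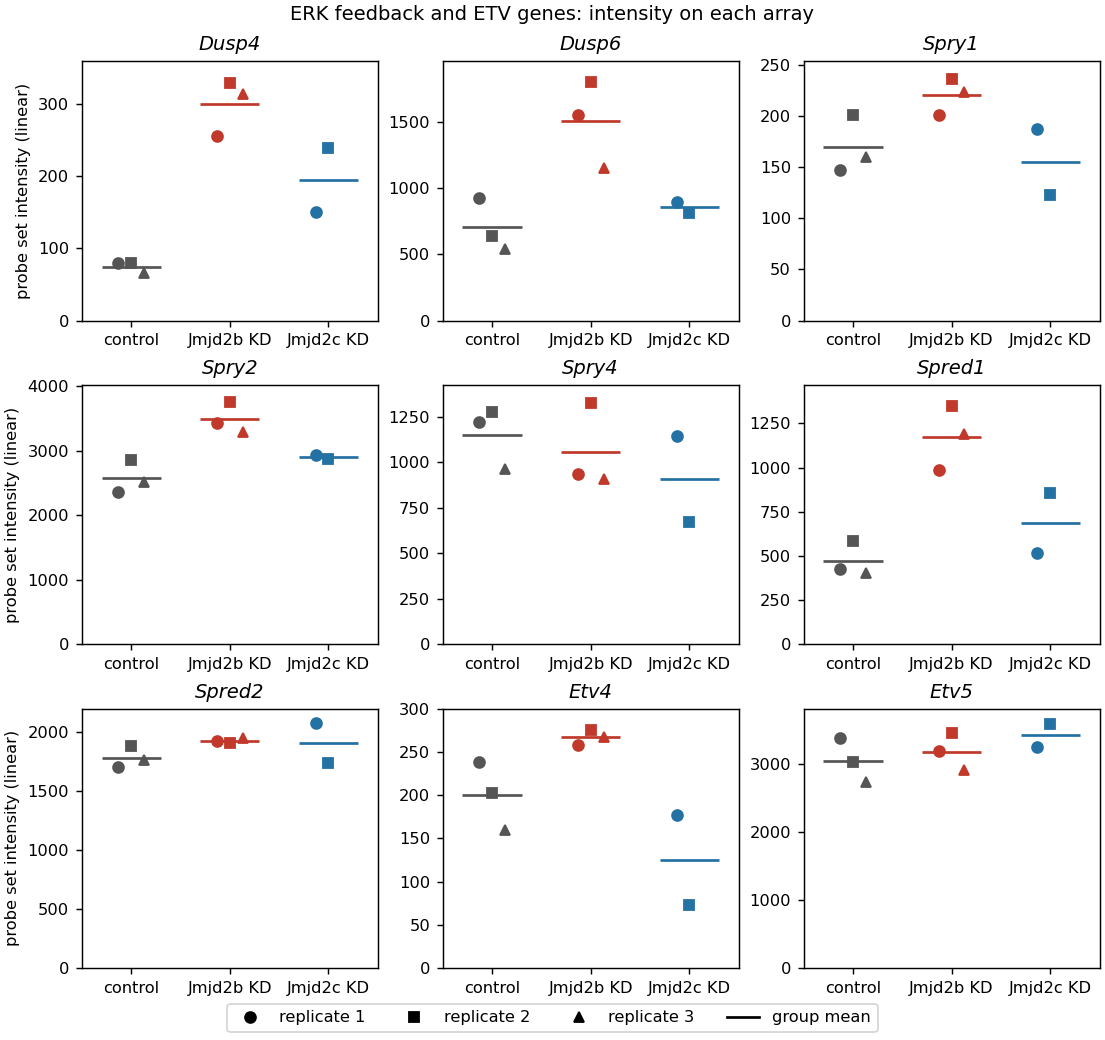
Intensity of the 9 measured genes on each array, linear scale from 0, with 1 panel per gene; points are single arrays of the control, Jmjd2b knockdown and Jmjd2c knockdown groups and bars are group means. Dusp4, Dusp6, Spry2 and Spred1 lay higher in all 3 Jmjd2b knockdown arrays than in any control, while Spry4 and Etv5 overlapped.

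Dusp4, which encodes a nuclear phosphatase that inactivates ERK, had intensities of 79.5, 79.1 and 65.2 in the controls. It reached 256, 329 and 313 in the Jmjd2b knockdown, and the groups did not overlap. The mean was 4.01-fold that of the controls (74.6 ± 8.16 against 299 ± 38.4, SD, n = 3 each), a log2 difference of 1.79 ± 0.18 (SE; limma adjusted p = 1.77e-04). The 95% interval ran from 1.39 to 2.20. Dusp6 encodes a cytoplasmic phosphatase selective for ERK, and its control values were 926, 642 and 544. Its Jmjd2b knockdown values were 1555, 1803 and 1156, all above every control. The mean was 2.14-fold that of the controls, with a log2 difference of 1.09 ± 0.21 (SE; limma adjusted p = 0.0040).

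Among the Sprouty genes, Spry2 rose while Spry1 and Spry4 did not pass the test. Spry2 moved from 2360, 2856 and 2514 in the controls to 3429, 3763 and 3295 in the Jmjd2b knockdown. The groups did not overlap. The mean was 1.36-fold that of the controls, and the log2 difference was 0.44 ± 0.09 (SE; limma adjusted p = 0.0052). Spry1 values of 147, 202 and 160 in the controls and 201, 236 and 224 in the Jmjd2b knockdown overlapped by a narrow margin. Its log2 difference of 0.36 had an interval from -0.04 to 0.75 (limma adjusted p = 0.181). Spry4 was at 1219, 1273 and 964 in the controls and at 935, 1325 and 907 in the Jmjd2b knockdown, so the groups overlapped. Its log2 difference was -0.14, with an interval from -0.61 to 0.34 (limma adjusted p = 0.703).

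Of Spred1 and Spred2, which encode related inhibitors of RAS activation, Spred1 rose. Spred1 was at 429, 584 and 402 in the controls and at 988, 1351 and 1189 in the Jmjd2b knockdown, where every array exceeded every control. The mean was 2.49-fold higher, and the log2 difference was 1.30 ± 0.21 (SE; limma adjusted p = 0.0017). Spred2 was at 1704, 1881 and 1760 in the controls and at 1925, 1908 and 1952 in the Jmjd2b knockdown. These ranges did not overlap either, but the log2 difference was 0.11, with an interval from -0.08 to 0.31 (limma adjusted p = 0.408). The difference between Spred1 and Spred2 was not itself tested.

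Neither Etv4 nor Etv5 passed the test in the Jmjd2b knockdown. Etv4 was at 238, 203 and 160 in the controls and at 259, 276 and 268 in the knockdown, with no overlap. Its log2 difference was 0.40, and its interval ran from -0.16 to 0.97 (limma adjusted p = 0.296). Etv5 was at 3389, 3032 and 2736 in the controls and at 3190, 3452 and 2909 in the knockdown. The groups overlapped, and the log2 difference of 0.06 had an interval from -0.15 to 0.28 (limma adjusted p = 0.702). In all, 6 of the 9 genes had every Jmjd2b knockdown array above every control, against 20.9% of all genes. In 0 of the 9 was every knockdown array below every control, against 23.8% of all genes.

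The arrays of the first and second sets allow the Jmjd2b knockdown to be compared with controls of its own set. Dusp4 differed by 1.85 (log2) in the first set and by 1.74 in the second, Dusp6 by 1.21 and 1.49, Spry2 by 0.53 and 0.45, and Spred1 by 1.40 and 1.26. All 4 genes were higher in both sets, with 1 Jmjd2b knockdown array in each. The arrays with a floor at 1 hold a single Jmjd2b knockdown array, assumed to vary like the 2 controls that give the spread. There Dusp4 and Spred1 passed the threshold (limma adjusted p = 0.0176 and 0.0404), and Dusp6 and Spry2 did not (0.0592 and 0.129). The arrays without the floor hold a single control, so the spread comes from the knockdown arrays. The log2 differences there were 1.88 for Dusp4, 1.28 for Dusp6, 0.42 for Spry2 and 1.40 for Spred1, and 0 of these 4 genes passed (limma adjusted p = 0.0772, 0.0818, 0.163 and 0.120), while 4 of the 9 measured genes had an unadjusted p under 0.05. The actin 3' to 5' ratio, a sign of RNA quality, was 1.45 to 1.63 in the controls and 1.31 to 1.42 in the Jmjd2b knockdown. In the Jmjd2c knockdown it was 1.43 to 1.48. The same ratio for Gapdh overlapped, at 0.936 to 0.980 in the controls and 0.937 to 0.987 in the Jmjd2b knockdown. It was 0.943 to 0.987 in the Jmjd2c knockdown. The part of RNA quality in the result was not tested.

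**Figure D2:**
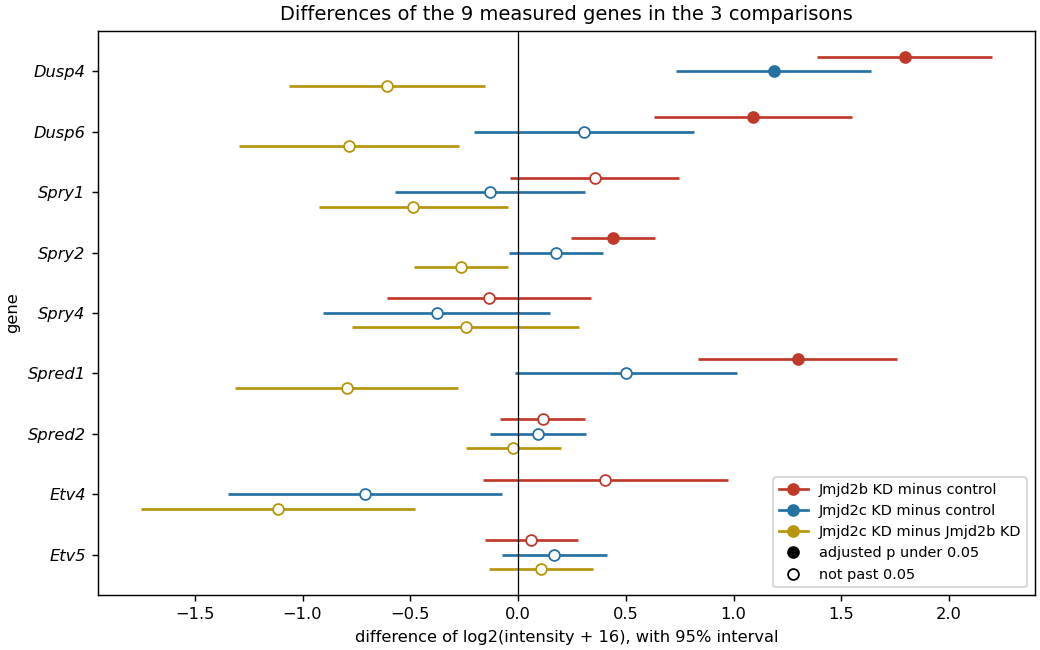
Difference in log2(intensity + 16) of the 9 genes for each knockdown minus the same controls and for the Jmjd2c minus the Jmjd2b knockdown; bars are 95% intervals from limma and filled symbols passed an adjusted p of 0.05. Dusp4 passed in both knockdowns, and Dusp6, Spry2 and Spred1 in the Jmjd2b knockdown, while 0 genes passed between the knockdowns.

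The probe sets of a gene did not all give a difference of the same size. The 27 probe sets were fitted with all 45037 that are not array controls. In the Jmjd2b knockdown 23 had a positive difference, 7 were called higher and 0 lower. Among all probe sets 9.23% were called higher and 8.06% lower, and the share with a positive difference was not computed. Spred1 gave 8 of the 27 and Spred2 gave 5, so these are not counts of separate genes. Both Spry2 probe sets rose, the second by 0.60 (limma adjusted p = 0.0163). For Spred1, 2 of 8 rose, the second by 1.33 (limma adjusted p = 0.0026), and the other 6 had differences of 0.10 to 0.53. A dim second Etv4 probe set rose by 0.49 (limma adjusted p = 0.0366). All 4 Spry4 probe sets were lower in both knockdowns and 0 passed the test. The 3 Etv5 probe sets were higher in both knockdowns, and 0 passed. In the Jmjd2c knockdown 16 of the 27 had a positive difference, 1 (Dusp4) was called higher and 0 lower, against 2.77% and 2.97% of all probe sets.

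**Figure D3:**
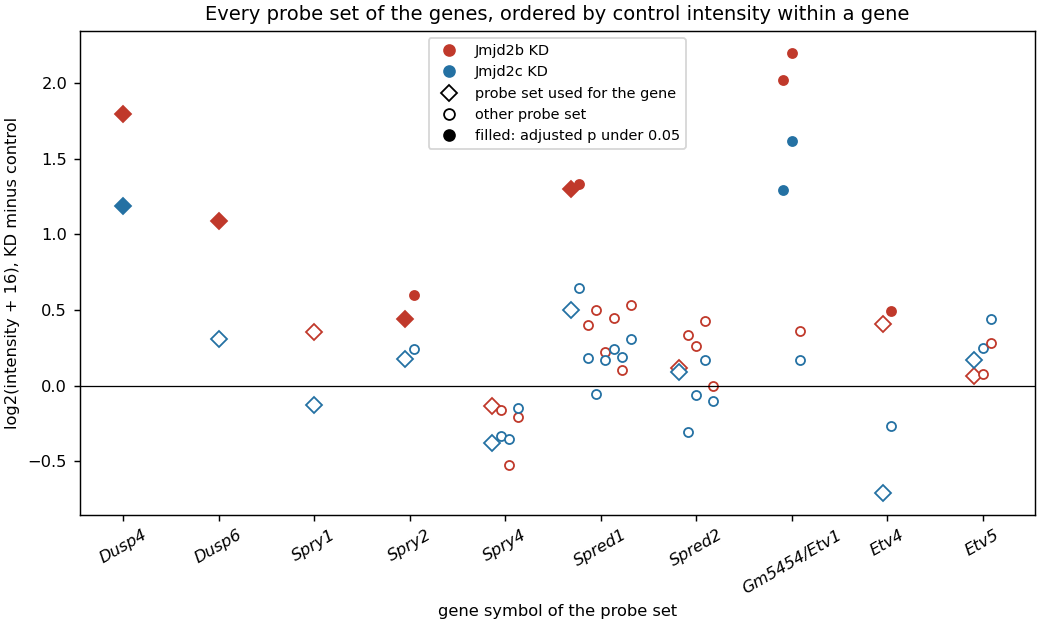
Log2 differences in the Jmjd2b and Jmjd2c knockdowns, each minus the controls, for each of the 27 probe sets grouped by gene, with the 3 probe sets shared by Gm5454 and Etv1; filled symbols passed an adjusted p of 0.05. Of the 27, 7 were called higher in the Jmjd2b knockdown and 1 in the Jmjd2c knockdown, and the 4 Spry4 probe sets lie below 0 in both.

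In the Jmjd2c knockdown, 1 of the 9 genes, Dusp4, rose and 0 fell, against 4.28% of all genes that rose and 5.25% that fell. Among only the 9096 genes above the median level, 830 rose and 945 fell, so 1 of 9 is near the share of such genes that rose. Both knockdowns were compared with the same 3 controls, so their values are set side by side and not counted as separate support. Dusp4 was at 150 and 239 in the Jmjd2c knockdown, both above the highest control of 79.5. The mean was 2.60-fold that of the controls, a log2 difference of 1.19 ± 0.20 (SE; limma adjusted p = 0.0088). With the array set as a block the difference was 1.13 (limma adjusted p = 0.223), and within the arrays without a floor it was 1.34 (limma adjusted p = 0.258), so the call was lost in both. Spry2, at 2936 and 2876, also exceeded every control, but its log2 difference of 0.18 did not pass (limma adjusted p = 0.313). These were 2 of 9 genes above every control, against 17.4% of all genes; 0 of 9 lay below every control, against 21.2%.

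The Jmjd2c knockdown arrays differed between themselves. Array 1, in which Kdm4c was lower, had Spred1 at 516 and Etv4 at 177, and array 2 had them at 857 and 72.8. For Spred1 the log2 difference from the control mean was 0.14 on array 1 and 0.86 on array 2, and for Etv4 it was -0.15 and -1.27. Spry4 was at 1145 and 670, and Spry1 at 188 and 123, again lower on array 2. Dusp6, at 898 and 810, lay within the range of the controls on both arrays. Spred2 was at 2076 and 1738, above the highest control on array 1 and within the control range on array 2, and Etv5 was at 3254 and 3593. Leaving out array 1 leaves a single Jmjd2c knockdown array, assumed to vary like the arrays of the other groups, from which the spread is taken. In that fit 4 genes were called: Dusp4 and Spred1 higher (log2 1.50 and 0.86), Etv4 and Spry4 lower (-1.27 and -0.76), with a limma adjusted p of 0.0265 for Spred1, 0.0033 for Etv4 and 0.0439 for Spry4. The calls other than Dusp4 therefore rest on 1 array. With both arrays, the log2 difference from the controls was 0.50 for Spred1 (limma adjusted p = 0.222), 0.31 for Dusp6 (0.476), -0.13 for Spry1 (0.752) and -0.38 for Spry4 (0.382). For Spred2 it was 0.09 (limma adjusted p = 0.634), for Etv4 -0.71 (0.160) and for Etv5 0.17 (0.397).

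Set directly against the Jmjd2b knockdown, the Jmjd2c knockdown had lower values for 8 of the 9 genes, but 0 passed the test in limma, while 0.137% of all genes were higher and 0.33% lower. The lowest limma adjusted p was 0.123, for Etv4 (log2 -1.11). Of the 9 genes, 6 had an unadjusted limma p under 0.05, as had 2368 of all 18193 genes. The median difference was -0.49 over the 9 genes and 0.0004 over all genes tested. In the groups, 6 of 9 genes had both Jmjd2c knockdown arrays below every Jmjd2b knockdown array, against 13.7% of all genes, and 0 had both above, against 13.4%. The 6 were Dusp4, Dusp6, Spry1, Spry2, Spred1 and Etv4. Besides Etv4, the log2 difference was -0.61 for Dusp4 (limma adjusted p = 0.237), -0.78 for Dusp6 (0.173), -0.49 for Spry1 (0.330), -0.26 for Spry2 (0.285) and -0.80 for Spred1 (0.172). The exception to the direction was Etv5, at 0.11 (limma adjusted p = 0.758). With the replicate number as a block, 2 of these genes passed the threshold: Dusp6 fell by 0.95 (limma adjusted p = 0.0493) and Spred1 fell by 0.84 (limma adjusted p = 0.0499), with 0.528% of all genes lower in that fit. The labels state no pairing, and deviations of same-numbered Jmjd2b and Jmjd2c knockdown arrays correlated at -0.0596 and 0.1409. The 2 Jmjd2c knockdown arrays deviate from their mean by equal and opposite amounts. These values therefore cannot decide whether the numbers pair the groups. Within the third set, which holds 1 Jmjd2b knockdown array, the log2 difference was -0.68 for Dusp4, -0.43 for Dusp6, -0.18 for Spry2 and -0.82 for Spred1. Leaving out Jmjd2c knockdown array 2 called Dusp4 (log2 -0.92) and Spred1 (-1.15) lower, and leaving out array 1 called Etv4 lower (-1.67); each fit again rests on 1 Jmjd2c knockdown array and the spread of the other groups. Of all genes, 25 were higher and 60 lower in this comparison; with quantile scaling the split was 50 and 64, and with median centring 39 and 61.

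Other genes of the pathway moved to differing degrees. The ERK cascade list had 16 measured genes, of which 3 were called higher and 1 lower in the Jmjd2b knockdown (median difference 0.23). In the Jmjd2c knockdown 0 passed in limma (median 0.11), and 3 had an unadjusted p under 0.05, as had 4346 of all 18193 genes. The MEK gene Map2k2 rose by 0.66 ± 0.11 (SE; limma adjusted p = 0.0024) and the RAS activator Sos1 by 0.60, while the FGF receptor adaptor Frs3 fell by 0.46. Among 16 genes listed as other ERK inhibitors and dual-specificity phosphatases, 6 were called higher and 4 lower with Jmjd2b shRNA (median 0.07). With Jmjd2c shRNA these counts were 2 and 3 (median -0.01). Il17rd, which encodes the FGF receptor inhibitor SEF, went from 300 ± 114 to 1118 ± 171 (SD, n = 3), a log2 difference of 1.90 ± 0.24 (SE; limma adjusted p = 4.71e-04). It rose in the Jmjd2c knockdown too, by 1.61 (limma adjusted p = 0.0074). Dusp14 rose by 1.10 and Dusp2 by 1.21 from a dim level. The fourth by p, Spred3, rose by 1.90, also from a dim level. The phosphatase genes Dusp1, Dusp9 and Dusp16 were among the 4 called lower, with log2 differences of -0.52, -0.79 and -0.72. Dusp1 and Dusp9, with control means of 2755 and 1096, were also called lower in the Jmjd2c knockdown. Their log2 differences there were -1.09 (limma adjusted p = 0.0042) and -1.42 (limma adjusted p = 0.0020). The remaining gene called lower with Jmjd2b shRNA, Lgals3, fell by 1.46. It was also called lower with Jmjd2c shRNA, by 1.58. Lgals3 encodes galectin-3, a sugar-binding protein and not a phosphatase, and is counted as listed. Whether its fall bears on ERK was not tested. Among 12 other ETS factors 3 rose and 1 fell in the Jmjd2b knockdown (median 0.01), and 2 and 0 in the Jmjd2c knockdown (0.04), with Ets1 up in the former by 2.29 ± 0.26 (SE; limma adjusted p = 3.28e-04). The 18 immediate early genes included 7 that rose, Phlda1 by 1.44, and 1 that fell with Jmjd2b shRNA (median 0.33), and 2 rose and 1 fell in the Jmjd2c knockdown (-0.03). Of 12 genes listed as FGF ligands and receptors, 5 rose and 1 fell in each knockdown (medians 0.42 and 0.47). The ligand genes Fgf5 and Fgf8 rose by 5.67 and 4.14 on the log2 scale in the Jmjd2b knockdown, from dim control levels, and by 4.69 and 2.65 in the Jmjd2c knockdown. Fgfbp1, which encodes an FGF-binding protein and neither a ligand nor a receptor, rose by 3.46 and 3.23, and the receptor gene Fgfr1 by 1.24 and 0.70. The ligand gene Fgf4 fell by 1.86 and 1.08.

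**Figure D4:**
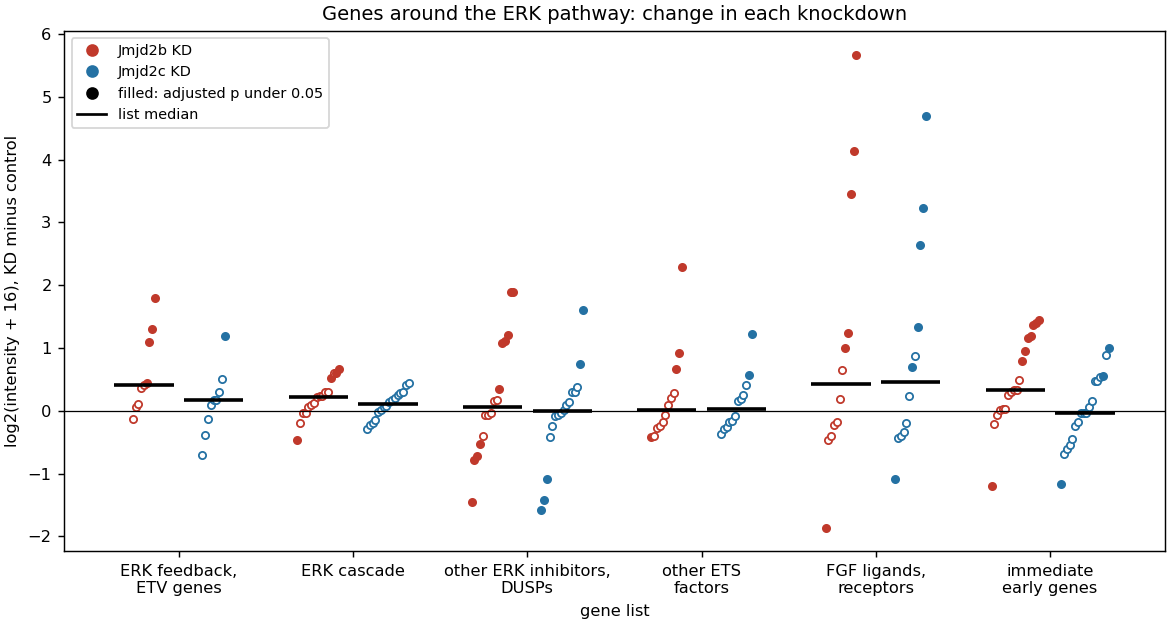
Log2 differences from the controls of the single genes in each pathway list, for both knockdowns, with the list median marked; the 9 measured ERK feedback and ETV genes are the first list. The members' median was 0.40 in the Jmjd2b knockdown and 0.17 in the Jmjd2c knockdown, against 0.42 and 0.47 for FGF ligands and receptors.

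Over the 8 arrays, and among the 9087 genes whose mean level was above the median of all genes, those most like Dusp6 in pattern were Eomes, Prpf39 and Dapk1 (Pearson r of 0.98, 0.98 and 0.97 over log2 values). For Spry2 they were Pgap1, Hacd3 and Acsl3 (r of 0.99 each), and for Etv5 Kbtbd8, Zeb1 and Nxn (0.93, 0.90 and 0.87). These are descriptions over 8 arrays of 3 groups, so a shared difference between groups gives a high r. Dusp4 and Spred1 had an r of 0.94 with each other, Spry2 and Spred1 0.91, Dusp4 and Dusp6 0.81, and Dusp4 and Spry4 -0.31.

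Markers of other cell types were read beside these results. In bulk RNA, fewer cells of a type and less RNA per cell cannot be told apart. The summed intensity of 12 primitive endoderm markers was 3507 to 4447 in the controls, 6606 to 7612 in the Jmjd2b knockdown and 4732 to 5062 in the Jmjd2c knockdown. That sum is made up mostly of Sparc and Lamb1. In the Jmjd2b knockdown 4 were called higher: Foxa2 (mean 13.1 in the controls and 92.6 in the knockdown), Dab2 (40.0 and 127), Lamb1 (820 and 2101) and Sparc (2312 and 4215). Lama1 was called lower, and Gata4, Gata6 and Sox17 did not pass, with means of 25.6, 29.9 and 31.4 in the controls and 23.9, 22.6 and 28.4 in the knockdown. Of the 12, 1 gene (Dab2) in the Jmjd2c knockdown was called higher and 0 lower.

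The sum of 10 trophoblast markers was 3569 to 4139 in the controls, 3581 to 4284 in the Jmjd2b knockdown and 3450 to 4322 in the Jmjd2c knockdown, and is made up mostly of Tfap2c (mean 3219 in the controls, 2358 in the Jmjd2b knockdown). Beneath that sum 3 were called higher in the Jmjd2b knockdown: Cdx2 (mean 4.24 in the controls and 442 in the knockdown), Eomes (169 and 832) and Gata3 (4.59 and 43.5). Tfap2c, Krt7, Ascl2 and Tead4 were called lower. With Jmjd2c shRNA, Cdx2 was called higher (mean 23.6) and Ascl2 lower.

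The sum of 14 fibroblast markers was 960 to 1031 in the controls, 838 to 893 in the Jmjd2b knockdown and 823 to 949 in the Jmjd2c knockdown. Twist1 (control mean 14.9, knockdown mean 95.5) and Col1a1 (12.5 and 55.9) were called higher in the Jmjd2b knockdown, and Thy1 (114 and 36.0) and Pdgfrb (378 and 137) lower. Twist1 was also called higher, and Thy1 and Pdgfrb lower, with Jmjd2c shRNA. Among 10 ES cell markers, 2 were called higher and 6 lower with Jmjd2b shRNA, and 0 and 3 with Jmjd2c shRNA. Sall4 and Dnmt3l were the 2 called higher. The 6 called lower were Esrrb (control mean 2751, knockdown mean 938), Nanog (5684 and 3615), Zfp42 (8982 and 6194), Sox2, Dppa5a and Tdgf1. Esrrb, Zfp42 and Tdgf1 were the 3 called lower with Jmjd2c shRNA. The sum of the 10 markers was 63677 to 65058 in the controls and 53075 to 57302 in the Jmjd2b knockdown. In the Jmjd2c knockdown it was 55798 to 56830, so both knockdowns lay below the controls. No listed marker was at exactly 0. The part of these markers in the results on the feedback genes was not tested.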

How the data were processed

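RNA of 8 samples was measured on 1 array each. Groups and replicate numbers came from the sample titles. Each probe set has 1 deposited intensity per array, linear in scale; biotinylated cRNA was hybridised per the labels' protocols. Probe summary, scaling and background correction: not given in the sources used here. Names came from the platform annotation, which gave 1 symbol for 34945 of 45101. Values were converted to log2(value + 16), with no further normalization or filter. The limma model (version 3.58.1, in R 4.3.3; lmFit, then eBayes with trend) held group means over 18193 genes, two-sided, with Benjamini-Hochberg adjustment. The text names all members, the hairpin targets, up to 4 genes of each pathway list with the smallest p, and 3 genes like 1 member of each class; other genes were named after their values were seen. The members and lists were chosen with earlier results of these data known. Deviations of same-numbered control and Jmjd2b knockdown arrays correlated at 0.176, 0.111 and 0.116. Those of Jmjd2c knockdown arrays with controls correlated at 0.0422 and 0.064. With 2 Jmjd2c knockdown arrays, such values cannot decide whether the numbers pair them with the other groups. The labels state no pairing, so the main model did not pair arrays by number. Pairing by number was run only as an alternative, the replicate block. Alternatives changed the scaling, pseudocount, probe set choice, blocks and samples. The number of arrays limits the precision.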

Additional observations from a re-analysis of the deposited data

Results flagged for a closer look

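Etv1 has no probe set of its own on this array: 3 probe sets are annotated to both Etv1 and the predicted gene Gm5454, and their signal cannot be assigned to Etv1 alone. They stand out because a difference appeared in probe sets that the comparisons did not use. The brighter one was at 150, 205 and 147 in the controls, at 597, 850 and 742 in the Jmjd2b knockdown and at 494 and 371 in the Jmjd2c knockdown, with no overlap. Its log2 difference was 2.02 in the Jmjd2b knockdown (limma adjusted p = 8.55e-05 over all probe sets) and 1.29 in the Jmjd2c knockdown (limma adjusted p = 0.0067). The next was at 76.0, 107 and 88.1 in the controls, at 396, 565 and 460 in the Jmjd2b knockdown and at 366 and 259 in the Jmjd2c knockdown. It differed by 2.20 (limma adjusted p = 6.55e-05) and 1.62 (limma adjusted p = 0.0033). The last was dim and did not pass in either knockdown (log2 0.36 and 0.17).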

How the results depend on the processing

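In the Jmjd2b knockdown, 4441 genes and 4 members were called; within the arrays with a floor at 1 these were 1138 and 2, and within those without it 99 and 0 (3169 genes with an unadjusted p under 0.05). Leaving out 1 array gave 2624 to 5615 genes, lowest without control 3, and 4 members each time. In the Jmjd2c knockdown, 1733 genes became 874 with only the groups compared, 1043 with the array type as a block, 6 with the array set as a block and 0 within the arrays without the floor (2176 with an unadjusted p under 0.05); the last 2 settings called 0 members. Leaving out 1 array gave 462 genes (without control 3) to 2919 (without Jmjd2c knockdown 1), and 1 to 4 members. Between the knockdowns, 85 genes became 142 with a pseudocount of 64, 2 with only the groups compared, 145 with the replicate block, 4 with the type block, 5 with the set block, and 0 within the arrays without the floor or within the third set (1094 and 620 with an unadjusted p under 0.05). Leaving out 1 array gave 2 to 788 genes and 0 to 2 members. The replicate block, which pairs arrays by number, called 4309 genes and 4 members in the Jmjd2b knockdown, 1378 and 1 in the Jmjd2c knockdown, and 2 members between the knockdowns; it changed no other call of a member. Differences that did not pass the test changed sign: Spry4 in the Jmjd2b knockdown was 0.0113 with the type block, 0.0312 with the set block and 0.0874 within the arrays with the floor, and Etv5 was -0.0133 to 0.1404 without 1 array. In the Jmjd2c knockdown, Spred2 was -0.0418 with the mean of its probe sets and -0.0342 to 0.22 without 1 array, Spry1 -0.40 to 0.14 and Spry4 -0.76 to 0.0019. Between the knockdowns, Spred2 was 0.0029 with median centring and -0.15 to 0.11 without 1 array, and Spry4 -0.62 to 0.14. The cause was not tested.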

Other observations

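Among the 18 immediate early genes, Egr1 and Fos are given here because their control values were far apart; both were picked after their values were seen. Egr1, an immediate early transcription factor gene, was at 399, 3944 and 2687 in the controls, at 1950, 2439 and 1846 in the Jmjd2b knockdown and at 1567 and 634 in the Jmjd2c knockdown. Fos was at 172, 1383 and 917 in the controls, at 462, 641 and 487 with Jmjd2b shRNA, against 396 and 394 with Jmjd2c shRNA. Control 1, lowest for both, had the highest control value of Dusp4, Dusp6, Etv4 and Etv5 and the lowest of Spry1, Spry2 and Spred2. For Spry4 and Spred1 it lay between the other controls.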
